A study of Canis lupus familiaris with 22 samples.

Results

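Genes of the prostaglandin E2 (PGE2) pathway were followed across canine mammary tumours (CMTs) and healthy mammary tissue. They are the synthases PTGS1, PTGS2 and PTGES and the receptors PTGER2 and PTGER4. Each has a probe on the array that targets its canine RefSeq transcript. All such probes were kept, which gave 7 probes for 5 of the 1458 genes that carry a symbol here. Other pathway genes with a probe, such as PTGES2, SLCO2A1 and HPGD, are given further below. PTGES and PTGS1 have 2 probes each. The dogs were clinical cases of mammary tumour referred for surgery, whose tumours were malignant or benign, and dogs whose mammary gland was healthy. All animals had a local anaesthetic, lignocaine, before tissue was taken, and the labels name no other agent, age or breed. The 19 arrays with scanner values came from 5 malignant (9 arrays), 3 benign (6 arrays) and 2 healthy dogs (4 arrays). Each array carried Cy3-labelled RNA of whole tissue, so that a signal is a mean over all the cells of the piece. All numbers of replicates count dogs.

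PGE2 is a lipid signal made from arachidonic acid. Phospholipases free the acid from membranes, the cyclooxygenases PTGS1 and PTGS2 (COX-1 and COX-2) turn it into prostaglandin H2, and PTGES, the inducible microsomal prostaglandin E synthase, turns that into PGE2. PTGS1 is made at a steady level in many tissues, while PTGS2 is induced by cytokines and growth factors, and COX-2 inhibitors are used in dogs with tumours. PGE2 leaves the cell and acts through 4 receptors, of which PTGER2 (EP2) and PTGER4 (EP4) raise cyclic AMP. HPGD breaks it down.

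The level of a probe is the log2 signal minus the 75th percentile of its array, so that 0 is that percentile and 1 unit is a factor of 2. Levels of different probes were not set against each other. The scanner software marks the spots that stand well above background, and a probe that is not marked has no measured level, only a bound. An array had 62.2% to 83.2% of its probes well above background, and the arrays of a dog correlated at 0.982 to 0.990 across probes.

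Both healthy libraries held RNA of pancreas genes. The summed level of 5 exocrine pancreas markers was 9.18 to 11.4985 in the healthy dogs against 0.16 to 1.14 in the malignant and 0.29 to 1.09 in the benign dogs. Of these markers, limma called 4 of 5 lower in both benign and malignant tumours (adjusted p of at most 0.05). The share of all probes called was 0.379% in benign and 0.416% in malignant tumours. REG3A stood well above background on 4 of 4 arrays of healthy tissue and on 0 of 15 arrays of tumours. Islet markers, among them insulin, summed to 4.81 to 9.62 in the healthy dogs, -2.29 to -0.86 in the malignant and -1.94 to 2.28 in the benign dogs. Mammary epithelium markers were present in the healthy dogs too, at a summed level of 4.23 to 5.60. Malignant dog 5 had 1 array with scanner values, which was read on another day and scanner than the rest and shared its slide with none of them. Every difference from healthy tissue given here is a difference from these 2 libraries, and the part that pancreas RNA has in it was not tested.

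The terminal synthase PTGES was high in all benign tumours. Its level was 2.98, 0.97, 4.43, 2.92 and -0.22 in malignant dogs 1 to 5, 3.47, 3.81 and 4.80 in benign dogs 1 to 3, and -0.72 and 2.48 in healthy dogs 1 and 2. Both healthy dogs lay below every benign dog, while the malignant dogs spread over the whole range and 3 of 5 exceeded both healthy dogs. The probe was well above background on 19 of 19 arrays. The second PTGES probe gave nearly the same pattern, and its level correlated with that of the first at r = 0.999 over 10 dogs. A higher level in such whole-tissue RNA can come from more cells of a type or from more RNA per cell, which cannot be told apart.

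The brighter probe of PTGS1 was well above background in all but 2 dogs. Its level was -1.97, -0.74, -0.11, -1.46 and -5.46 in malignant dogs 1 to 5, -2.74, 1.14 and 1.17 in benign dogs 1 to 3, and -6.59 and -0.60 in healthy dogs 1 and 2. In malignant dog 5 and healthy dog 1 no array was well above background, so that their values are bounds. The 2 highest levels were those of benign dogs 2 and 3. The second probe was dimmer, and its levels were -4.93, -3.61, -2.90, -4.66 and -5.41 in the malignant, -5.43, -1.83 and -2.24 in the benign and -4.67 and -3.71 in the healthy dogs. It also placed benign dogs 2 and 3 highest. This probe did detect PTGS1 on 1 of the 2 arrays of healthy dog 1, while in malignant dog 5 neither probe did. The 2 probes correlated at r = 0.793 over 10 dogs, and each was well above background on 16 of 19 arrays.

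PTGS2, the inducible cyclooxygenase, varied more between dogs than 97.6% of the probes tested, with a standard deviation of 2.51 over 10 dogs against a median of 0.79 over all probes. Its level was -1.95, -0.19, -0.80, -3.26 and 1.1 in malignant dogs 1 to 5, -2.01, 2.67 and 3.81 in benign dogs 1 to 3, and -3.75 and -2.30 in healthy dogs 1 and 2. Benign dogs 2 and 3 stood highest and malignant dog 5 next. Benign dog 1 lay within the range of the malignant dogs and only just above healthy dog 2. All arrays were well above background for this probe, and the arrays of a dog differed by at most 0.49.

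The receptor PTGER4 ran the other way, with the highest levels in healthy dog 1 and malignant dog 5. It stood at 0.31, 1.46, -2.19, -1.25 and 3.41 in malignant dogs 1 to 5, at 1.57, 1.60 and 0.64 in benign dogs 1 to 3, and at 3.50 and 1.75 in healthy dogs 1 and 2. All benign dogs lay below both healthy dogs, as did 4 of the 5 malignant dogs. The benign dogs were close to each other (SD 0.55, n = 3) and the malignant dogs far apart (SD 2.21, n = 5). PTGER4 was well above background on 19 of 19 arrays.

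PTGER2, the other cyclic AMP-raising receptor, was at or near background throughout. Its probe was well above background on 4 of 19 arrays, those of malignant dog 1 and benign dog 3, and on 0 of the 4 arrays of healthy tissue. The values were -5.47, -6.09, -6.32, -6.60 and -5.19 in malignant dogs 1 to 5, -5.46, -5.79 and -4.69 in benign dogs 1 to 3, and -6.64 and -6.07 in healthy dogs 1 and 2. No fold change is given for it, because the lowest signal well above background on the healthy arrays lay above the mean of each tumour group. Its direction also turned between tumours and healthy tissue with the background correction, as given in the closing section.

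**Figure D1:**
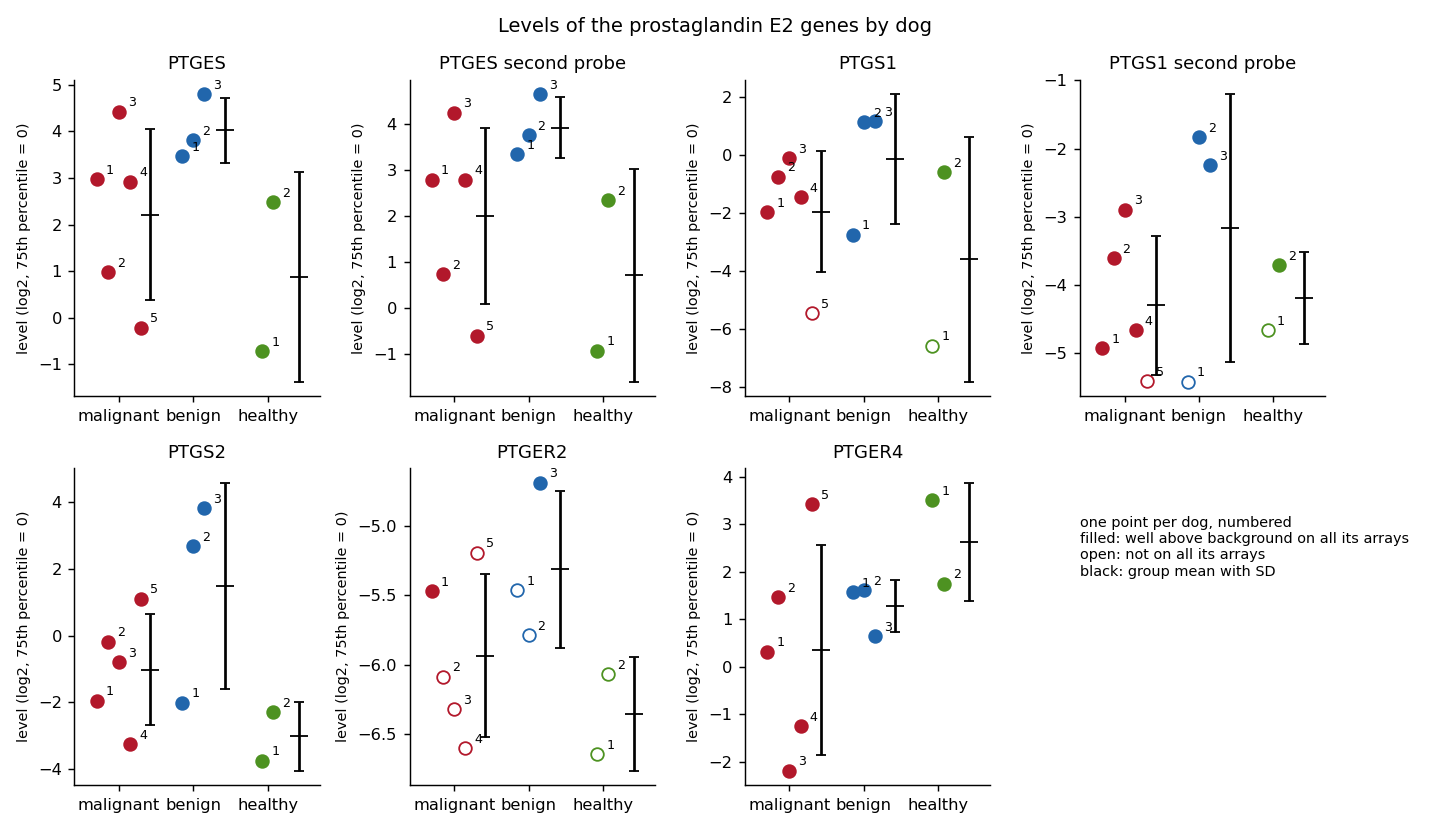
Level of each probe (log2 signal, with the 75th percentile of an array at 0) in each dog, by group, with the number of the dog beside its point. Black lines give the group mean and SD over 5 malignant, 3 benign and 2 healthy dogs, and open points are dogs with at least 1 array not well above background. PTGES in the benign dogs (3.47 to 4.80) lies above both healthy dogs, and PTGER4 in the benign dogs (0.64 to 1.60) lies below both.

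The first question of the design was how benign tumours differ from healthy tissue. No member probe passed Benjamini-Hochberg adjustment over all 35310 probes tested (limma, 0 of 7), against 0.379% of all probes. At an unadjusted limma p of at most 0.05 stood 3 of 7 member probes, both of PTGES and that of PTGS2, against 6.79% of all probes. PTGES was 3.15 higher on the log2 scale in benign than in healthy tissue (SE 1.30, 95% interval 0.28 to 6.01, 8.85-fold), with a limma adjusted p of 0.708. PTGS2 was 4.51 higher (SE 1.61, 95% interval 0.95 to 8.07, 22.8-fold) at a limma adjusted p of 0.646, and 99.9% of the probes tested had a lower log2 fold change. Its signal in healthy dogs 1 and 2 was only 2.35 and 4.90 times the local background. With another background correction, normexp, PTGS2 was 3.13 higher, so the size of the fold depends on that step. For PTGS1 the difference was 3.45 (SE 1.93, limma adjusted p = 0.790) with the brighter probe, which was at background in healthy dog 1, and 1.02 (SE 1.06) with the second, both with groups that overlap.

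PTGER4 had a log2 fold change of -1.36 in benign against healthy tissue (SE 1.36, 95% interval -4.37 to 1.66), with a limma adjusted p of 0.918. PTGES and PTGS2 had every benign dog above both healthy dogs, as did 12.4% of all probes. PTGER4 had every benign dog below both, as did 11.1% of all probes. No order is read from PTGER2, which was at background in both healthy dogs and in 2 of 3 benign dogs. An exact two-sided permutation test over 3 and 2 dogs cannot go below p = 0.2.

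These differences leaned on single dogs. Without healthy dog 1 the log2 fold change of PTGES in benign tissue was 1.55, and without healthy dog 2 it was 4.74. That of PTGS1 stood at 0.46 without healthy dog 1, and none is given without healthy dog 2, because the brighter probe was at background in the healthy dog that is left. PTGER4 stood at -0.48 without healthy dog 1 and at -2.24 without healthy dog 2. For PTGS2 the benign dogs decided the value, which was 6.26 without benign dog 1 and 3.35 without benign dog 3.

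Arrays of both groups shared 2 slides. On slide 2, benign dog 1 exceeded the mean of both healthy dogs by 2.58 in PTGES and 1.11 in PTGS2. On slide 5, the mean of benign dogs 1 and 3 exceeded healthy dog 2 by 1.72 in PTGES and 3.22 in PTGS2, and for PTGS2 this came nearly all from benign dog 3, since benign dog 1 had a level of -2.01 against -2.30 in healthy dog 2. The PTGER4 difference was -0.99 on slide 2 and -0.74 on slide 5. With the slide as a block over arrays, the log2 fold changes were 3.22 for PTGES, 4.55 for PTGS2 and -1.33 for PTGER4.

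The second question was how malignant tumours differ from healthy tissue. Of the member probes 0 of 7 passed adjustment in limma, against 0.416% of all probes, and 0 of 7 reached an unadjusted p of at most 0.05, against 5.81%. PTGES was 1.34 higher on the log2 scale (SE 1.19, 95% interval -1.29 to 3.96, limma adjusted p = 0.951). PTGS2 was 2.004 higher (SE 1.48, 95% interval -1.26 to 5.27, limma adjusted p = 0.943), and 4 of 5 malignant dogs exceeded both healthy dogs. PTGER4 differed by -2.28 (SE 1.25, 95% interval -5.04 to 0.49), the lowest limma adjusted p of the 7 probes at 0.899, and in 4 of 5 malignant dogs the level was under that of both healthy dogs. The PTGS1 probes gave 1.65 (SE 1.77) and -0.11 (SE 0.98).

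PTGES stood at -0.26 without healthy dog 1 and at 2.93 without healthy dog 2, and PTGS1 stood at -1.35 without healthy dog 1. PTGS2 and PTGER4 kept their direction whichever dog was left out. PTGER4 moved between -3.15 without healthy dog 2 and -1.40 without healthy dog 1, and PTGS2 between 1.28 without healthy dog 1 and 2.73 without healthy dog 2. Within slides the PTGER4 difference was -2.25, -2.68 and -2.99 on slides 2, 4 and 5, and the PTGES difference 1.99, 2.82 and 0.52. That of PTGS2 was 1.15, 2.49 and -0.77 on the same slides, negative on slide 5, where malignant dog 4 faced healthy dog 2. With the slide as a block, PTGER4 differed by -3.06, PTGES by 2.01 and PTGS2 by 1.46. Malignant dog 5, alone on its slide, adds nothing to the within-slide or slide-block values. It is the only malignant dog whose PTGER4 was not below both healthy dogs.

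**Figure D2:**
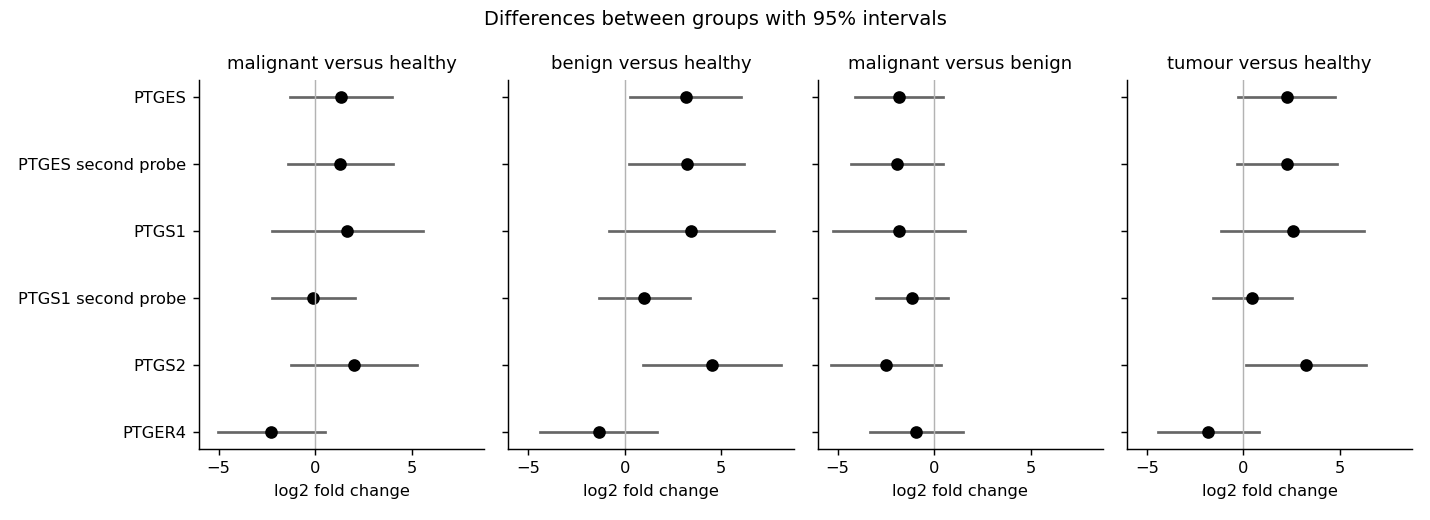
Log2 fold change (first group minus second) of each member probe measured on most arrays in the 4 comparisons, with 95% intervals from limma over 10 dogs. PTGER2, at background on all healthy arrays, is left out. The intervals of PTGES (0.28 to 6.01) and PTGS2 (0.95 to 8.07) between benign and healthy tissue lie above 0, and 0 of 7 member probes passed adjustment over all probes.

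Malignant against benign tumours was compared next. The member probes called by limma were 0 of 7, as were 0% of all probes, and 0 of 7 reached an unadjusted p of at most 0.05, against 1.8% of all probes. Here PTGES differed by -1.81 on the log2 scale (SE 1.04, 95% interval -4.10 to 0.48), with 4 of 5 malignant dogs below every benign dog. PTGS2 differed by -2.51 (SE 1.29, 95% interval -5.36 to 0.34), a value that was -4.26 without benign dog 1 and -1.35 without benign dog 3. PTGER4 differed by -0.92 (SE 1.09, 95% interval -3.33 to 1.49), which was -0.29 without malignant dog 3 and -1.69 without malignant dog 5. The within-slide PTGES differences were -0.59, -0.62, -1.20 and -1.18 on slides 2, 3, 5 and 6, and those of PTGS2 were 0.04, -5.30, -3.99 and -3.29. Malignant dog 5 is in none of them. Exact permutation tests over 5 and 3 dogs, two-sided with a smallest possible p of 0.0357, gave p = 0.179 for PTGES, p = 0.214 for PTGS2 and p = 0.429 for PTGER4.

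With both kinds of tumour set against healthy tissue, each kind with equal weight, limma called 0 of 7 member probes against 0.442% of all probes. At an unadjusted p of at most 0.05 stood 1 of 7, that of PTGS2, against 7.24% of all probes. PTGS2 was 3.26 higher in tumours on the log2 scale (SE 1.41, 95% interval 0.15 to 6.36, limma adjusted p = 0.679), and 7 of 8 tumours exceeded both healthy dogs. PTGES was 2.24 higher (SE 1.13, limma adjusted p = 0.731) with 6 of 8 tumours above both, but only 0.64 higher without healthy dog 1 and 3.84 higher without healthy dog 2. PTGER4 differed by -1.82 (SE 1.19, limma adjusted p = 0.821) with 7 of 8 tumours below both healthy dogs, all but malignant dog 5. The exact permutation test over 8 and 2 dogs, two-sided with a smallest possible p of 0.0444, gave p = 0.0889 for PTGS2 and for PTGER4 and p = 0.178 for PTGES. These comparisons share their healthy dogs and are not independent of each other.

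**Figure D3:**
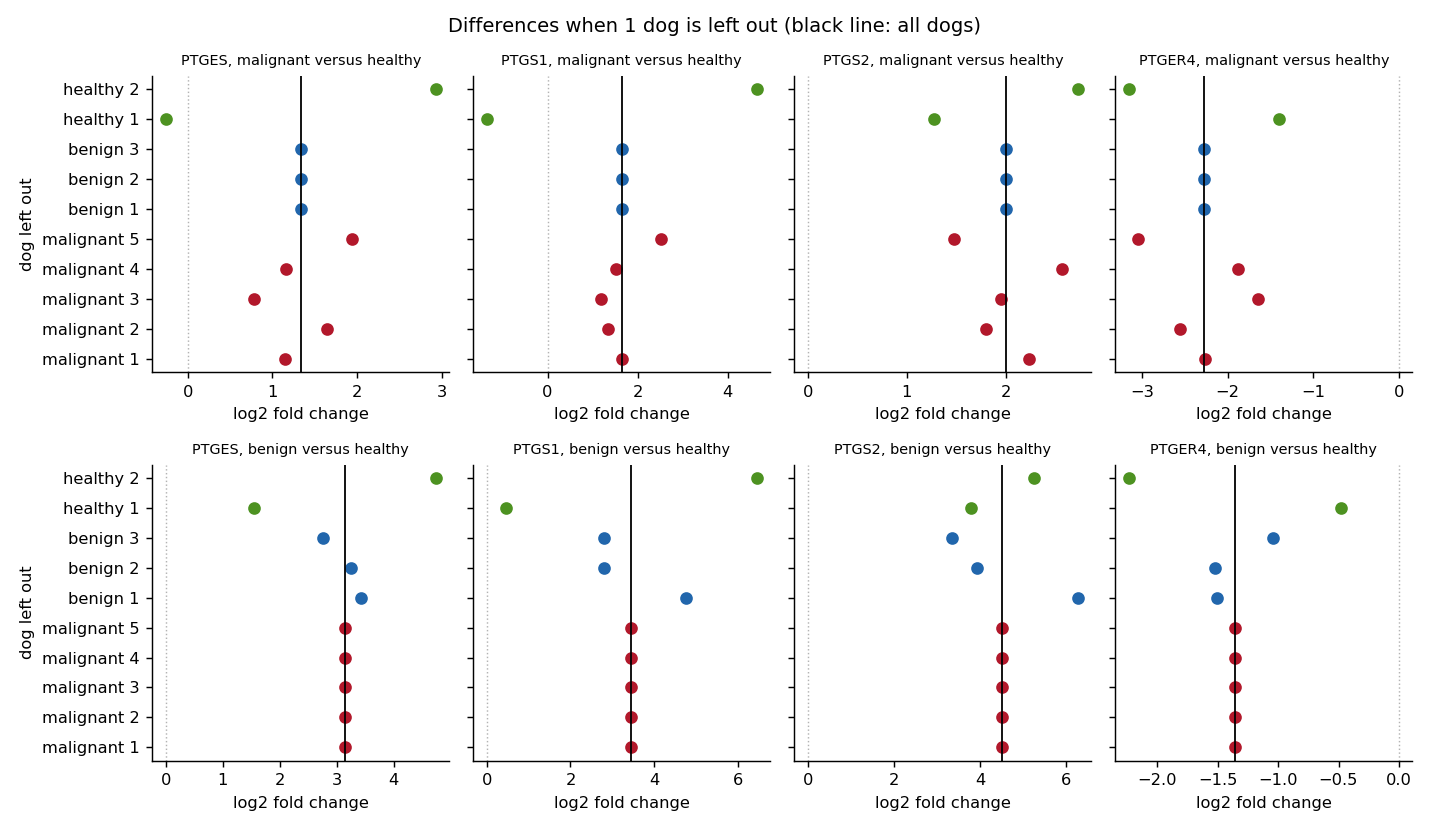
Log2 fold change of PTGES, PTGS1, PTGS2 and PTGER4 against healthy tissue when 1 dog is left out of the fit (points, coloured by the group of that dog), with the value over all 10 dogs as a black line and 0 dotted. PTGES in malignant tissue goes from -0.26 without healthy dog 1 to 2.93 without healthy dog 2, and PTGER4 stays below 0 in both its panels. The PTGS1 points without healthy dog 2 rest on a healthy level at background and are no measured folds.

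The genes were then set against each other over the 10 dogs. All 6 pairs among PTGES, PTGS1, PTGS2 and PTGER4 were computed with two-sided permutation tests and Benjamini-Hochberg adjustment over the 6 pairs. PTGES and PTGS1 went together (Pearson r = 0.837, permutation p = 0.00388, adjusted 0.0233, and Spearman rho = 0.758, permutation p = 0.0155, adjusted 0.0928). The relation rests on healthy dog 1 and malignant dog 5, the dogs farthest from the median of PTGES, in which the brighter PTGS1 probe was not well above background. Without these 2 dogs r was 0.409. Among the 22940 probes well above background on every array, 0.876% correlated with PTGES as far in the same direction.

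PTGES and PTGER4 were opposed (r = -0.725, permutation p = 0.0174, adjusted 0.0523, rho = -0.636, permutation p = 0.0537, adjusted 0.161), and r was -0.373 without the same 2 dogs. PTGES and PTGS2 gave r = 0.370 (permutation p = 0.293, adjusted 0.351) and rho = 0.503 (permutation p = 0.145, adjusted 0.217). The other pairs gave r between -0.604 for PTGS1 with PTGER4 and 0.518 for PTGS1 with PTGS2, with adjusted permutation p of 0.124 and 0.182. Without the same 2 dogs r was 0.013 for PTGS1 with PTGER4 and 0.840 for PTGS1 with PTGS2. Slides hold too few dogs for these relations to be computed within them.

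Healthy dog 1 and malignant dog 5 combined the lowest PTGES, a brighter PTGS1 probe at background and the highest PTGER4. The fibroblast markers COL1A1, COL1A2 and DCN were lowest in these 2 dogs. COL1A1 was at 0.71 in healthy dog 1 and 0.98 in malignant dog 5 against 4.16 or more in the other dogs. COL1A2 was at 3.13 and 3.64 against 6.36 or more, and DCN at 4.50 and 2.36 against 4.86 or more. VIM differed, lowest of all dogs in healthy dog 1 (5.06) and highest in malignant dog 5 (8.56). Summed over 4 fibroblast markers, healthy dog 1 was lowest at 6.05. Malignant dog 5, at 8.63, lay within the range of the others (8.19 to 10.88), and its sum is nearly all that of VIM. In malignant dog 5 the epithelial keratin KRT19 was at -3.56, the lowest of all dogs. Of the adipose markers, ADIPOQ was highest there at 4.12 and LEP was not, at -0.46 against 0.93 in healthy dog 1. The part of these markers in the PTGES and PTGER4 levels was not tested.

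**Figure D4:**
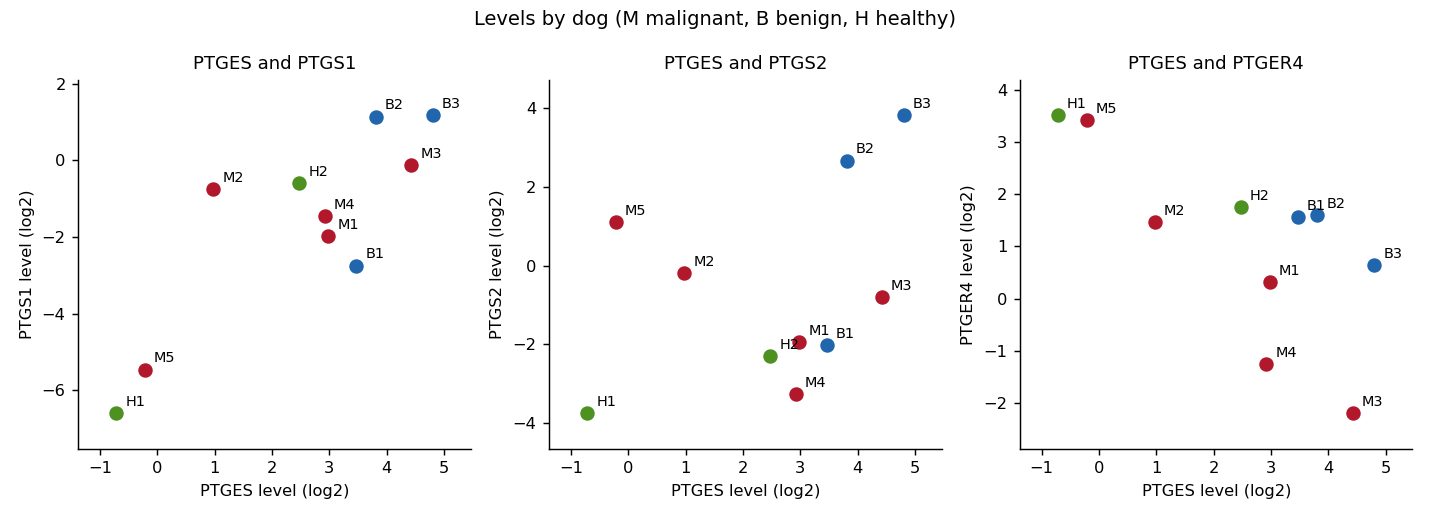
Levels (log2) of PTGS1, PTGS2 and PTGER4 against that of PTGES, 1 point for each of 10 dogs, lettered by group. Healthy dog 1 and malignant dog 5 lie at the low end of PTGES, apart from the other dogs, with the lowest PTGS1 and the highest PTGER4, and r falls from 0.837 to 0.409 for PTGS1 and from -0.725 to -0.373 for PTGER4 without them.

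Genes around the members were taken from 5 lists of the pathway, which hold 51 genes, of which 22 had a probe with a symbol and 21 were tested. Of these, 1 of 21 was called in benign, in malignant and in all tumours against healthy tissue, and 0 of 21 between malignant and benign tumours, against 0.379%, 0.416%, 0.442% and 0% of all probes. It was PLA2G1B, a phospholipase A2 that the exocrine pancreas secretes. Its level was 10.2 and 8.85 in the healthy dogs and -1.26 to 0.79 in the tumours, a log2 fold change of -9.94 in tumours (SE 0.62, limma adjusted p = 1.63e-05), and it moved with the pancreas markers given above. PTGES2, a synthase that is not inducible, differed by -0.87 in tumours (SE 0.70, limma adjusted p = 0.862). The prostaglandin transporter SLCO2A1 differed by -1.11 (SE 0.62, limma adjusted p = 0.768).

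Among inducers of PTGS2 and genes that act with it, 0 of 11 were called and 8 of 11 were higher in benign than in healthy tissue, with a median log2 fold change of 1.12 against 0.03 over all probes. In malignant tissue 9 of 11 were higher, with a median of 0.60 against 0.07. As the medians over all probes lie above 0, more of all probes were higher than lower too. Every benign dog exceeded both healthy dogs in 5 of 11 of these genes, CXCL8, HIF1A, IL1A, IL6 and TLR2, against 12.4% of all probes. The IL1A probe was well above background on 6 of 6 benign and 0 of 4 healthy arrays, and the IL6 probe on 6 of 6 and 2 of 4. IL1A and IL1B are in these counts, although neither was well above background on any healthy array, so that their values against healthy tissue are no measured folds. The median of 0.60 in malignant tissue is the value of IL1B. The neutrophil attractant CXCL8 was at 5.47 and 5.44 in benign dogs 2 and 3, 0.32 in benign dog 1, -0.66 to 2.30 in the malignant and -2.37 and -1.15 in the healthy dogs. In tumours CXCL8 had a log2 fold change of 4.00 (SE 1.25, limma adjusted p = 0.475) and the receptor of bacterial lipoproteins TLR2 one of 3.04 (SE 1.01, limma adjusted p = 0.523).

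Benign dogs 2 and 3, which had the highest PTGS2, also had the highest levels of the inflammatory cytokines IL6 and IL1B. IL6 was at 0.95 and 0.43 in them, at -2.29 in benign dog 1 and at -5.89 to -0.68 in the malignant dogs. The IL6 probe was well above background on 6 of 6 benign and 5 of 9 malignant arrays, so that part of the malignant values are bounds. IL1B was at -0.93 and -0.37 in them and at -4.93 or lower in all other dogs. The IL1B probe was well above background on 4 of 6 benign, 3 of 9 malignant and 0 of 4 healthy arrays, so that no fold change against healthy tissue is given. TNF, another such cytokine, did not follow them, at -3.83 in benign dog 2, the lowest of all dogs, and -2.80 in benign dog 3, within the range of the rest.

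**Figure D5:**
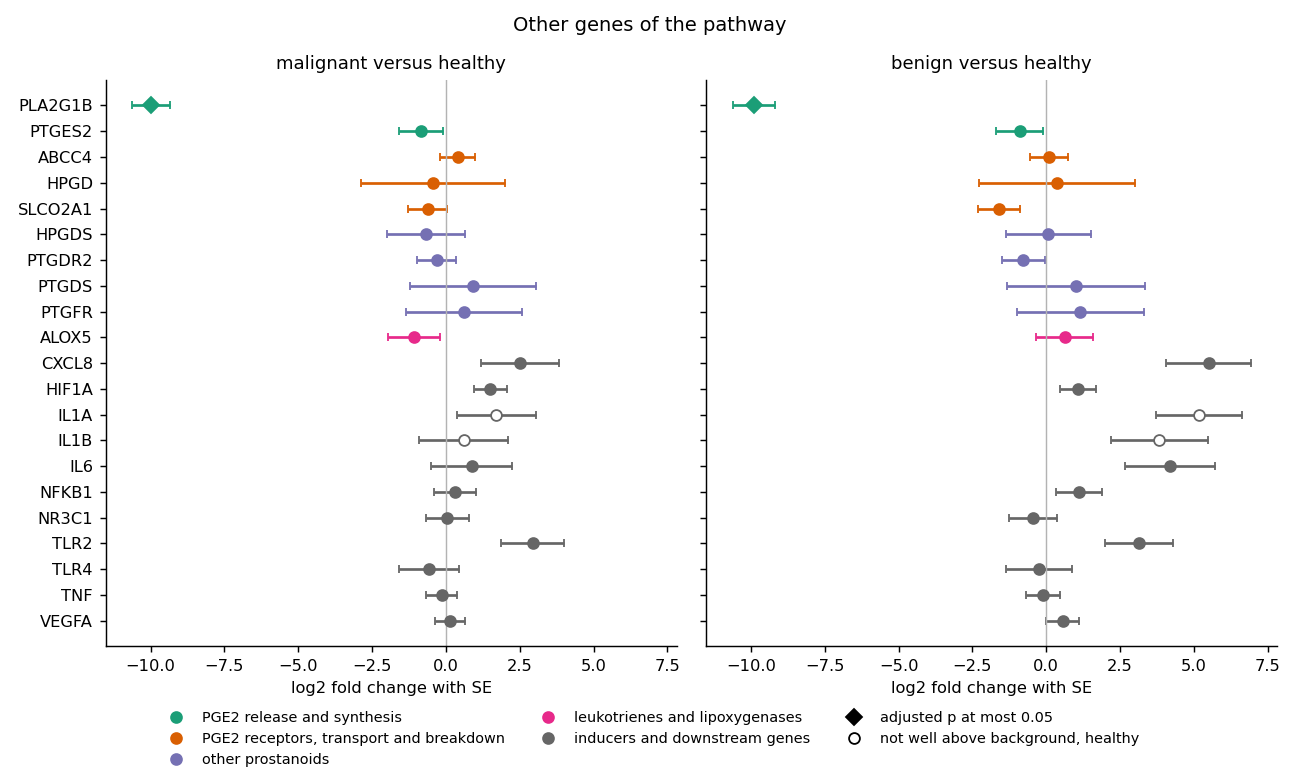
Log2 fold change with SE of the 21 other pathway genes tested, in malignant (left) and benign (right) against healthy tissue, coloured by list. Diamonds are genes called by limma and open points are genes not well above background on any healthy array. PLA2G1B, near -10 in both panels, is the only diamond, and CXCL8 and TLR2 lie to the right of 0 in both.

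Markers of immune cells were summed for the same libraries. Macrophage markers summed to 4.40 to 5.34 in the benign, 2.93 to 4.96 in the malignant and 0.87 to 3.27 in the healthy dogs. The Fc receptor FCGR1A, 1 of 4 of them, was called in benign tissue (log2 fold change 4.04, SE 0.63, limma adjusted p = 0.0208), against 0.379% of all probes. FCGR1A was also called in all tumours (log2 fold change 3.14, SE 0.55, limma adjusted p = 0.0368), against 0.442% of all probes, and not in malignant tissue. Neutrophil markers summed to 5.35 to 8.45 in the benign, 1.66 to 7.84 in the malignant and 0.28 to 1.67 in the healthy dogs, with 0 of 3 called. The summed level of neutrophil markers is nearly all that of S100A8, which epithelium can also make. Mast cell markers, with 0 of 3 called, overlapped between the groups, as did fibroblast markers with 0 of 4 and lymphocyte markers with 0 of 3. Endothelial markers, with 0 of 2 called, summed to 4.14 to 4.95 in the benign, 3.18 to 5.53 in the malignant and 5.08 to 6.10 in the healthy dogs. Whether the PGE2 genes follow the share of such cells was not tested.

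By the Pearson correlation over the 10 dogs, the genes most like each member were sought among 889 other genes with a symbol and a probe well above background on every array. Closest to PTGES were the G protein subunit GNAI2 (r = 0.893), the actin regulator VASP (r = 0.886) and the glycolytic enzyme ALDOC (r = 0.866). PTGS2 was nearest to the adenosine receptor ADORA2A (r = 0.880), the sulfatase ARSJ (r = 0.872) and the small GTPase NRAS (r = 0.848). For PTGER4 they were the membrane protein PGRMC1 (r = 0.975), the selenoprotein SELENOS (r = 0.953) and ARPIN (r = 0.894). These are the ends of a ranking over 10 dogs that share the same libraries, and no test was made of them.

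Malignant dog 6 was measured only in the table of signals of all arrays, in which the background is not taken off. On that scale PTGES was at 3.09 in malignant dog 6 and at -0.14 to 4.35 in the other malignant dogs. PTGS2 was at -2.82, below the -2.56 to 0.76 of the others, and PTGER4 at -0.01. With this dog and the second array of malignant dog 5 in the fit, the log2 fold changes between malignant and healthy tissue were 1.39 for PTGES, 1.01 for PTGS2 and -2.04 for PTGER4.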

How the data were processed

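RNA of mammary tissue was labelled with Cy3 and hybridized to 1-colour Agilent canine (v2) arrays. For each array the authors deposited Feature Extraction 11.5.1.1 output, in which the processed signal is an intensity on a linear scale with background and spatial trend removed and no scaling between arrays. The deposited table of all 22 arrays holds the median intensity of each spot with nothing removed, and equals that of the scanner files in 45220 of 45220 spots on 19 of 19 arrays. Per the labels, each dog has arrays a and b, called biological duplicates, and the methods call them duplicates. They were averaged and counted as 1 dog, so that p-values measure the spread between dogs. The labels give 6 malignant, 3 benign and 2 healthy dogs.

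The processed signal was turned to log2 and the 75th percentile of the array subtracted, outlier spots left out. Of 43603 probes, 35310 were well above background on at least 4 arrays and were fitted together in limma 3.58.1 (R 4.3.3, data.table version 1.17.8) with 3 groups and Benjamini-Hochberg adjustment at 0.05. The fit was tested on simulated data. Symbols came from the RefSeq transcript of a probe (assembly UU_Cfam_GSD_1.0), which named 2348 of 2441 probes for curated mRNAs, and other probes carry no symbol here. The number of arrays limits the precision.

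The members and lists were chosen with earlier results of these data known. Named were every member probe, every pathway gene called and up to 4 per list with the largest change in tumours, marker genes called, and for each member measured on all arrays the 3 most correlated genes. Other genes or levels named beside them (COL1A1, COL1A2, DCN, VIM, KRT19, ADIPOQ, LEP, IL1B, TNF, HIF1A, S100A8, REG3A) were chosen after their values were seen. Alternatives were another background correction, quantile normalization, other filters, arrays in place of dogs, slide and number blocks, the table of signals, the study's t-test run unpaired and leaving out each dog. 0 columns of sample values were left unused.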

Additional observations from a re-analysis of the deposited data

How the results depend on the processing

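No member probe was called in any of the 4 comparisons under any alternative. The member probes tested were 7, except 4 among probes well above background on every array and 5 with 1 value per gene. Over the whole array the probes called ranged from 32 to 950 in malignant, 0 to 993 in benign and 49 to 1177 in all tumours against healthy tissue and from 0 to 2 between malignant and benign tumours. The highest counts against healthy tissue came without healthy dog 2. Of 28 log2 fold changes, 17 kept their direction under every alternative that was run, PTGS2 and PTGER4 among them in all comparisons, and 588 of 609 recomputed values kept it. Many of these values could not turn. Other filters, a fit on only the groups compared, and leaving out a dog of a group outside the comparison do not change a log2 fold change. These counts are therefore no measure of how stable the directions are.

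Dim probes turned with the background correction, whose cause was not tested. With normexp, PTGER2 stood at -0.42 in malignant, -0.998 in benign and -0.71 in all tumours against healthy tissue and at 0.58 between malignant and benign tumours, the second PTGS1 probe at -0.11 in benign and -0.24 in all tumours, and 2 genes (PTGES and PTGER4) in place of 4 (these, PTGS2 and PTGER2) had benign dogs wholly on one side of the healthy dogs. With quantile normalization they were 3, without PTGER2. In the table of signals PTGER2 stood at -0.22, -0.57, -0.39 and 0.35 in the same order, and the second PTGS1 probe at -0.040 in all tumours. With the slide as a block, PTGER2 stood at -0.067 and the second PTGS1 probe at 0.072 in malignant tissue, a fit to which malignant dog 5 adds nothing.

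Leaving out 1 dog gave -0.26 to 2.93 for PTGES, -0.36 to 2.92 for its second probe, -1.35 to 4.64 for PTGS1 and -0.59 to 0.36 for its second probe in malignant against healthy tissue. In all tumours the range was -0.45 to 5.55 for PTGS1 and -0.025 to 1.02 for its second probe. The upper ends for PTGS1 are against healthy dog 1 alone, where its brighter probe was at background, and are no measured folds. Genes with benign dogs on one side of the healthy dogs were 4 to 5, PTGER2 at background among them. Leaving out a dog cannot break such a separation, so this count could not fall. Over all dogs, 12.4% of all probes had every benign dog above both healthy dogs and 11.1% below.

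Healthy tissue came from other animals than the tumours, and the paper gives no pairs of dogs. Deviations of dogs of the same number correlated at -0.17 to 0.11, but with so few dogs in a group this cannot exclude a pairing. With the dog number as a replicate block, 0 of 7 member probes were called in each comparison, and PTGES stood at 2.54 and PTGS2 at 3.89 in benign against healthy tissue. The paper names a paired t-test with Storey correction. Run unpaired here, since no pairs are given, the t-test called 0 of 7 member probes after either correction. Before correction, 0 of 7 had a t-test p of at most 0.05 in each comparison. Of all 35310 probes, 1417 had one in malignant, 1717 in benign and 2447 in all tumours against healthy tissue. Between malignant and benign tumours 803 had one. The fit on only the groups compared was not run for all tumours, where it is the main one.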

Other observations

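HPGD and PTGDS stood highest in malignant dog 5, which had 1 array, read on another day and scanner than the rest. HPGD, which breaks PGE2 down, was at 3.002 there and at -7.68 to -4.52 in the other malignant dogs, -6.14 to -2.32 in the benign and -4.70 and -3.66 in the healthy dogs, and was well above background on 3 of 9 malignant, 4 of 6 benign and 2 of 4 healthy arrays. PTGDS, which makes prostaglandin D2 from the same precursor, was at 6.32 in malignant dog 5, at -1.92 to 0.85 in the other malignant dogs and at 4.18 in benign dog 2. Neither gene was called in a comparison. ALOX5, the first enzyme of leukotriene synthesis, differed by -0.23 in tumours against healthy tissue (SE 0.84, limma adjusted p = 0.982).

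Other prostanoid receptors could be tested. The prostaglandin D2 receptor PTGDR2 differed by -0.54 in tumours (SE 0.63, limma adjusted p = 0.920) and the prostaglandin F receptor PTGFR by 0.88 (SE 1.87, limma adjusted p = 0.965). PTGFR ranged from -7.28 to 0.01 in the malignant dogs. Its probe was well above background on 6 of 9 malignant, 6 of 6 benign and 2 of 4 healthy arrays, so that part of these values are bounds.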
